A study of Mus musculus with 9 samples.

Results

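The MHC class I antigen presentation genes of mouse fibroblasts are described here across 3 states of copper supply. They are 10 genes chosen by name: the heavy chains H2-D1 and H2-K1, their light chain B2m, the peptide transporter subunits Tap1 and Tap2, the loading factor Tapbp, the immunoproteasome subunits Psmb8, Psmb9 and Psmb10, and the transcriptional regulator Nlrc5. All 10 were among the 52661 gene rows of the deposited count table, and all 10 passed the filter on low counts with 18408 genes in total.

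RNA was sequenced from embryonic fibroblasts of C57BL/6 mice, a mixed connective tissue culture, with 3 libraries in each of 3 groups. Wild type cells carried Ctr1, the copper importer of the plasma membrane encoded by Slc31a1. Ctr1-null cells were Ctr1 -/- by genotype and are titled FloxedCtr1, and how the gene was removed is not given in the sources used here. The Ctr1-null + BCS group held the same Ctr1 -/- genotype and was given the copper chelator BCS (bathocuproine disulfonic acid) for 48 hours; its dose is 500 uM in the sample labels and 500 mM in the design text. Cells of every group had been immortalised with T/t antigen and were grown in a medium with EGF and FGF-2, so no group represents primary fibroblasts. There was no wild type group with BCS, so an effect of the chelator in cells with Ctr1 cannot be read from these libraries. The labels do not state separate cultures, so p-values measure only the spread between libraries, which may be technical.

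Class I molecules show peptides from inside the cell to cytotoxic T cells and to natural killer cells. The proteasome cuts proteins into peptides, the TAP transporter carries these into the endoplasmic reticulum, and tapasin holds an empty heavy chain with B2m beside TAP until a peptide binds. Fibroblasts keep the pathway at a low level and raise it with interferon-gamma, which also exchanges catalytic subunits of the constitutive proteasome for those of the immunoproteasome. NLRC5 is the class I transactivator and acts through a conserved promoter module with S, X and Y boxes.

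Promoter sequences are shown for the members whose start regions hold a shared element, because some of these genes passed the tests reported after them and others did not. RefSeq windows of GRCm38.p6, from 250 bases before to 50 bases after the start, matched 8 of the 10 members, Tap2 and Nlrc5 being the exceptions. A search on both strands for TGACG and ATTGG separated by 20 bases, letters resembling an X2 and a Y box that were picked after reading these sequences, matched 27 of 27025 genes (0.0999%), and B2m, H2-K1 and H2-D1 were 3 of them. Capitals mark these letters in the 30-base segments at chr2:122147609-122147638 (plus strand), chr17:34000359-34000388 (minus strand) and chr17:35262993-35263022 (plus strand).
B2m: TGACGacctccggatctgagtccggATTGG
H2-K1: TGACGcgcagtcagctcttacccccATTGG
H2-D1: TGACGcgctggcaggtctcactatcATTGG
None of these 3 genes passed the test in the comparisons that follow.

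Psmb9 and Tap1 are transcribed away from each other, and their RefSeq starts at chromosome 17 positions 34187330 and 34187556 leave 225 bases between them. Both therefore share the segment at chr17:34187322-34187351 (plus strand), in which the capitals mark a CCAAT box. CCAAT, searched on both strands, was present in 41.1% of all promoter windows and in 6 of the 8 member windows, those of H2-D1, H2-K1, B2m, Tap1, Tapbp and Psmb9. ATTGG above is CCAAT read on the other strand, so H2-D1, H2-K1 and B2m were certain to match. H2-D1 and H2-K1 also held a separate CCAAT.
Tap1 and Psmb9: gggctcggctttCCAATcagcggctgcgcg
Psmb8 was the only one of the 8 with TTCNNNGAA, the letters of a gamma-activated site, which 9.55% of all windows held. It lies at chr17:34198088-34198117 (plus strand) with the site in capitals.
Psmb8: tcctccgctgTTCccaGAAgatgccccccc
A match describes letters in a window, and no factor was measured there.

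The libraries held between 38962036 and 57206337 counts, and a count of 0 allows up to 3 counts, or 0.0545 to 0.0811 CPM (counts scaled to the library total with the TMM factors of edgeR). Slc31a1 stood at 54.8 to 56.1 CPM in wild type libraries, 1.40 to 3.88 in Ctr1-null and 1.69 to 3.24 with BCS, as labelled. The 9 fibroblast markers summed to 15500 to 19900 CPM over all libraries. Fn1 and Vim, with means of 7670 and 5180 CPM in wild type, gave most of this, so the sum does not show the scarcer markers. Thy1 had a mean of 0.403 CPM in wild type. Pdgfra was uneven, at 65.3, 6.11 and 6.62 CPM in wild type replicates 1 to 3. Its mean was 57.5 ± 32.6 CPM in Ctr1-null and 42.6 ± 3.97 with BCS (SD, n = 3). Wild type replicate 1 stood apart. Its score on PC1, which carried 46.2% of the variance, was -2.04 and within the range of the Ctr1-null libraries (-32 to 9.05), while wild type replicates 2 and 3 had scores of 67.1 and 63.3. Results that rest on it are therefore also given without it. In bulk RNA, fewer cells of a type and less RNA per cell cannot be told apart.

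In Ctr1-null cells with BCS, Tap1, Tap2 and Psmb8 rose against wild type, by 1.84-fold, 3.35-fold and 3.25-fold. Both chains of the peptide transporter were thus higher, while H2-D1, B2m, Tapbp and Psmb10 had estimates within 0.20 of 0 on the log2 scale and passed no test. These 3 of 10 members were called at an adjusted p under 0.05 (edgeR quasi-likelihood test with Benjamini-Hochberg adjustment), where 8.56% of all tested genes were called higher and 7.28% lower. The median log2 fold change of the 10 members was 0.63, beside 0.006 for all genes. Unadjusted, 5 members had p under 0.05, all higher, against 17.0% of all genes, with 15.9% lower. In 5 members, Tap1, Tap2, Psmb8, Psmb9 and Nlrc5, every BCS library was above every wild type library, which 20.0% of all genes did, and no member showed the opposite, which 17.1% did.

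**Figure D1:**
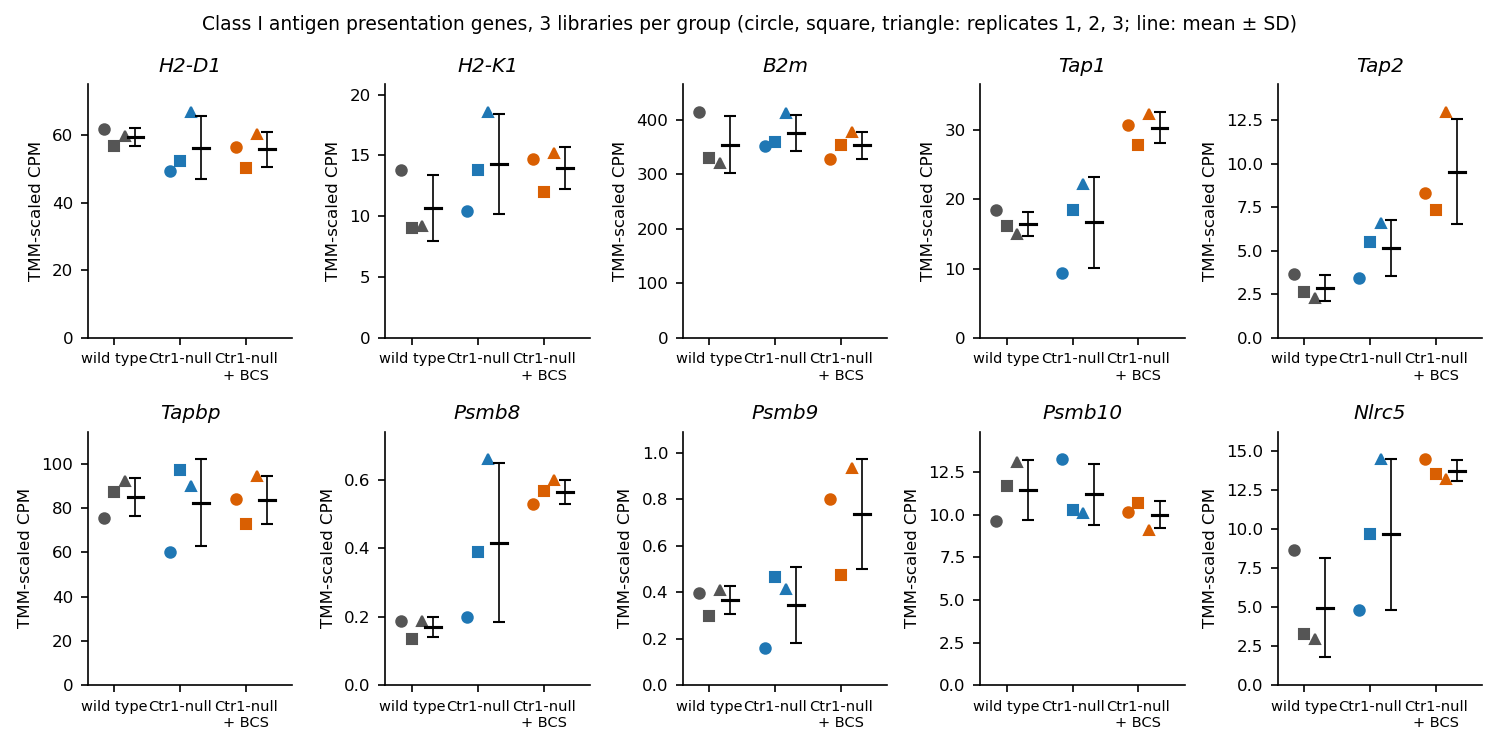
TMM-scaled CPM of each gene in each library, with circle, square and triangle for replicates 1, 2 and 3 and a line with bars for the mean ± SD of 3 libraries. Tap1, Tap2, Psmb8, Psmb9 and Nlrc5 have all BCS libraries above all wild type libraries, while H2-D1, B2m, Tapbp and Psmb10 overlap.

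Tap1 (ENSMUSG00000037321.17, GRCm38 chromosome 17, 34187553 to 34197225, plus strand) encodes one chain of the transporter that carries peptides across the endoplasmic reticulum membrane. Its level was 18.4, 16.1 and 15.0 CPM in wild type replicates 1 to 3, 9.42, 18.4 and 22.2 in Ctr1-null, and 30.8, 27.9 and 32.4 with BCS. All 3 BCS libraries were above all 6 others, and the Ctr1-null libraries spread to both sides of wild type. Against wild type the BCS group had a log2 fold change of 0.88 ± 0.25 (SE, adjusted p = 0.0422, edgeR). Against Ctr1-null it was 0.87 ± 0.25 (adjusted p = 0.187, edgeR), with a 95% interval of 0.31 to 1.43. Ctr1-null against wild type gave 0.01 ± 0.25 (adjusted p = 0.982, edgeR). The call against wild type lay near the threshold: it held in 3 of 9 fits that each left out 1 library, where the adjusted p reached 0.146 and the estimate ran from 0.81 to 0.96. It was lost without any 1 of the BCS libraries, wild type replicate 2 or 3 or Ctr1-null replicate 2, and kept without wild type replicate 1 (adjusted p = 0.0309).

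Tap2 (ENSMUSG00000024339.12, chromosome 17, 34203527 to 34216321, plus strand) encodes the partner chain, without which no working transporter forms. It was measured at 3.68, 2.62 and 2.27 CPM in wild type, 3.43, 5.48 and 6.61 in Ctr1-null and 8.30, 7.36 and 13.0 with BCS. The BCS libraries were the 3 highest, and 2 of the 3 Ctr1-null libraries lay above every wild type library. The increase of the BCS group over wild type was 1.74 ± 0.30 on the log2 scale (adjusted p = 0.00938, edgeR). It was called in all 9 fits that left out 1 library, with an adjusted p from 0.00321 to 0.0489, and under all 10 other settings. Ctr1-null stood between the other groups, at 0.86 ± 0.30 against wild type (adjusted p = 0.203) and with BCS 0.89 ± 0.29 above Ctr1-null (adjusted p = 0.223, both edgeR), so neither step passed on its own. Without wild type replicate 1 the estimate for Ctr1-null against wild type was 1.08 (adjusted p = 0.0485, edgeR), in a fit that called 9.22% of genes higher.

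Tapbp (ENSMUSG00000024308.14, chromosome 17, 33915899 to 33929292, plus strand) encodes tapasin, the bridge between TAP and the empty class I molecule. It was at 75.5, 87.4 and 92.2 CPM in wild type, 60.3, 97.3 and 90.1 in Ctr1-null and 84.2, 72.8 and 94.4 with BCS, and the groups overlapped in every comparison. The BCS group differed from wild type by -0.02 ± 0.17 on the log2 scale (95% interval -0.40 to 0.36, adjusted p = 0.95, edgeR). Tapbp shares 3422 bases of its span on the same strand with Zbtb22, which had a mean of 27.9, 29.7 and 29.2 CPM in the 3 groups, so part of its count could be split with that gene.

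H2-D1 (ENSMUSG00000073411.11, chromosome 17, 35262730 to 35267499, plus strand) encodes a classical heavy chain, which holds the peptide. It was measured at 62.0, 56.7 and 59.8 CPM in wild type, 49.5, 52.5 and 67.0 in Ctr1-null and 56.5, 50.4 and 60.5 with BCS. The 3 groups overlapped, and the difference between BCS and wild type was -0.09 ± 0.12 (95% interval -0.36 to 0.17, adjusted p = 0.624, edgeR). H2-K1 (ENSMUSG00000061232.15, chromosome 17, 33996017 to 34000347, minus strand), the other classical heavy chain of this strain, was lower at 13.8, 9.00 and 9.18 CPM in wild type, 10.4, 13.8 and 18.6 in Ctr1-null and 14.7, 12.0 and 15.2 with BCS. Wild type replicates 2 and 3 were the lowest of the 9 libraries, and wild type replicate 1 lay among the others. The BCS group stood 0.39 ± 0.23 above wild type (95% interval -0.13 to 0.90, adjusted p = 0.274, edgeR), and 0.61 without wild type replicate 1 (adjusted p = 0.0601). Of the 31-base words in the transcripts of H2-D1, 26.7% also occur in transcripts of other genes on the same strand, as do 22.8% of those of H2-K1, so the values of both depend on how the counting divided shared reads.

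B2m (ENSMUSG00000060802.8, chromosome 2, 122147686 to 122153083, plus strand) encodes beta-2 microglobulin, the light chain common to class I molecules. It was at 415, 329 and 320 CPM in wild type, 352, 360 and 413 in Ctr1-null and 328, 354 and 377 with BCS. The highest library of all was wild type replicate 1, and all groups overlapped. BCS against wild type gave -0.01 ± 0.12 (95% interval -0.27 to 0.25, adjusted p = 0.971, edgeR). The intervals of H2-D1, B2m and Tapbp lie below that of Tap2 (1.06 to 2.42), although a difference between genes was not itself tested.

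Psmb8 (ENSMUSG00000024338.14, chromosome 17, 34197721 to 34201454, plus strand) encodes the beta5i subunit, which replaces Psmb5 in the immunoproteasome. It was scarce: 9, 5 and 10 counts in wild type, 10, 20 and 32 in Ctr1-null and 29, 30 and 30 with BCS. In CPM these were 0.187, 0.135 and 0.186, then 0.198, 0.388 and 0.661, then 0.528, 0.568 and 0.598. Every library without Ctr1 was above every wild type library, by a narrow margin for Ctr1-null replicate 1. The BCS group rose by 1.70 ± 0.41 on the log2 scale (adjusted p = 0.0256, edgeR). Ctr1-null against wild type gave 1.26 ± 0.43 (adjusted p = 0.191) and BCS against Ctr1-null 0.44 ± 0.37 (adjusted p = 0.614, both edgeR). The call against wild type held in 4 of 9 fits without 1 library, with an adjusted p of up to 0.0932, and was lost without any 1 of the BCS libraries or of wild type replicates 2 and 3.

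Psmb9 (ENSMUSG00000096727.2, chromosome 17, 34181987 to 34187764, minus strand) encodes beta1i, which replaces Psmb6. It had 19, 11 and 22 counts in wild type, 8, 24 and 20 in Ctr1-null and 44, 25 and 47 with BCS. The CPM values of 0.801, 0.473 and 0.936 with BCS were all above the highest wild type library (0.409) and the highest Ctr1-null library (0.465), though replicate 2 only just. The difference from wild type, 0.99 ± 0.39, did not pass (adjusted p = 0.114, edgeR), nor did that from Ctr1-null, 1.09 ± 0.39 (adjusted p = 0.253). Psmb9 and Tap1 overlap by 212 bases on opposite strands, and whether the counting used strand is not given in the sources used here, so reads from these bases may be assigned to either gene.

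Psmb10 (ENSMUSG00000031897.9, chromosome 8, 105935735 to 105938444, minus strand) encodes beta2i, which replaces Psmb7, and lies outside the MHC. It was at 9.63, 11.7 and 13.1 CPM in wild type, 13.3, 10.3 and 10.1 in Ctr1-null and 10.2, 10.7 and 9.14 with BCS. The groups overlapped, and BCS against wild type gave -0.20 ± 0.15 (95% interval -0.54 to 0.14, adjusted p = 0.396, edgeR). Per kilobase of longest transcript, Psmb8 stood at 0.0865% ± 0.0308 of the level of its constitutive partner Psmb5 in wild type, 0.267% ± 0.165 in Ctr1-null and 0.334% ± 0.0233 with BCS (SD, n = 3). Psmb9 stood at 0.125% ± 0.024, 0.123% ± 0.062 and 0.255% ± 0.0817 of Psmb6, and Psmb10 at 13.4% ± 0.581, 14.8% ± 0.667 and 12.7% ± 0.704 of Psmb7. Transcripts of Psmb8 and Psmb9 thus remained under 1% of those of their partners in all libraries, on this scale.

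Nlrc5 (ENSMUSG00000074151.13, chromosome 8, 94434356 to 94527272, plus strand), the class I transactivator, lay just outside the threshold in BCS against wild type. It was measured at 8.63, 3.30 and 2.94 CPM in wild type, 4.84, 9.67 and 14.5 in Ctr1-null and 14.5, 13.5 and 13.2 with BCS. The BCS libraries were close together and above all wild type libraries, whereas Ctr1-null ranged from within wild type to the BCS level. BCS against wild type gave 1.47 ± 0.45 (adjusted p = 0.0535, edgeR), and 2.14 (adjusted p = 0.00414) without wild type replicate 1, in a fit that called 15.7% of genes higher. Over all fits without 1 library the adjusted p ran from 0.00414 to 0.177, with calls also made without Ctr1-null replicate 1 or 3, and over the 10 other settings from 0.0145 to 0.131, with 4 calls. Ctr1-null against wild type gave 0.96 ± 0.45 (adjusted p = 0.301, edgeR), and 1.63 (adjusted p = 0.0195) without wild type replicate 1.

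**Figure D2:**
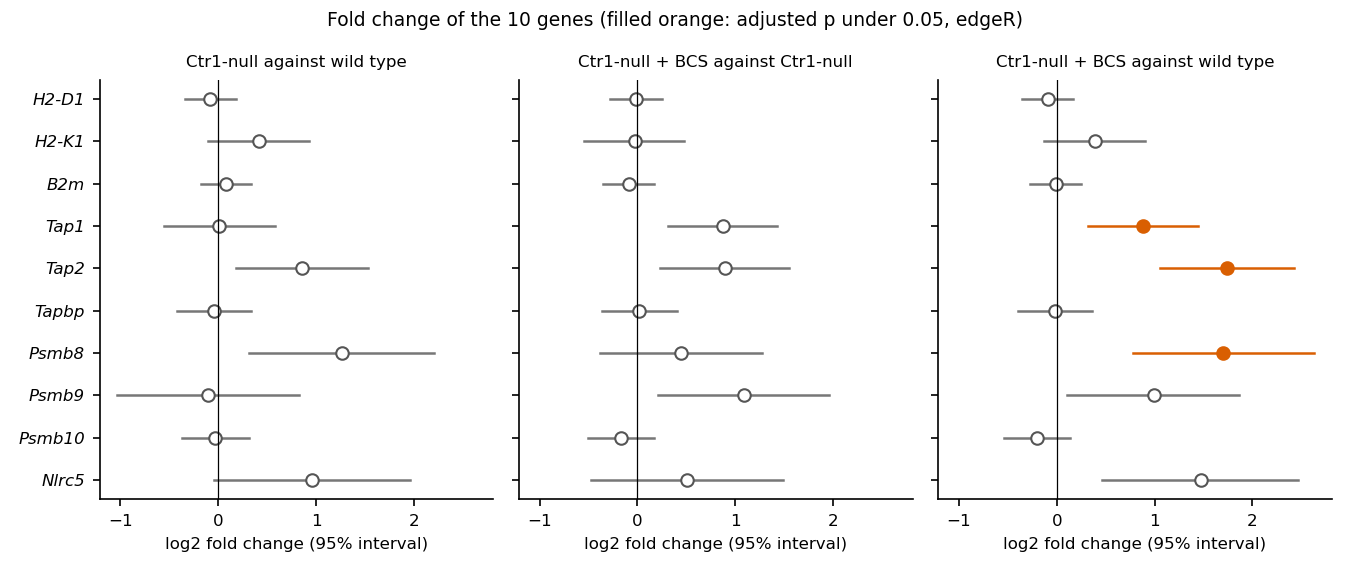
Log2 fold change of each gene in the 3 comparisons, with the 95% interval from the edgeR fit. The intervals of Tap1, Tap2, Psmb8, Psmb9 and Nlrc5 for Ctr1-null + BCS against wild type lie above 0, and those of H2-D1, H2-K1, B2m, Tapbp and Psmb10 include 0.

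The steps that make up this contrast share libraries with it, so their values stand side by side and are not independent. For Ctr1-null against wild type, which compares cells without and with the importer, edgeR called 0 of 10 members, where 0.00543% of genes were called higher and 0.00543% lower. Unadjusted, Tap2 and Psmb8 had p under 0.05, with 9.08% of all genes so in the higher direction, and DESeq2 and limma-voom also called 0 members. Psmb8 alone had groups that did not overlap, as 9.49% of genes did in that direction and 8.62% in the other, and the median of the members was 0.05. For BCS against Ctr1-null, which asks what chelation adds in cells without the importer, edgeR and limma-voom called 0 of 10 members. There edgeR called 0.0380% of genes higher and 0.0163% lower. DESeq2 called Tap1 (adjusted p = 0.0204), in a fit that called 621 genes in this comparison. Unadjusted, 3 members had p under 0.05, all higher, against 8.34% of all genes. Tap1, Tap2 and Psmb9 had groups that did not overlap, against 13.4% of all genes (10.9% in the lower direction, with no member), and the members' median was 0.23.

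Compared per kilobase of longest transcript, the members kept a steep order of level. B2m was highest at 413 ± 61.2 CPM per kilobase in wild type, followed by Tapbp at 29.3 ± 2.97 and H2-D1 at 28.3 ± 1.25, which did not differ beyond their spread. Then came Psmb10 at 8.77 ± 1.34, H2-K1 at 5.69 ± 1.46 and Tap1 at 4.22 ± 0.442. Tap2 at 0.830 ± 0.214 and Nlrc5 at 0.654 ± 0.421 overlapped, and Psmb9 at 0.127 ± 0.0211 and Psmb8 at 0.0888 ± 0.0156 were lowest (SD, n = 3 each). With BCS, Tap1 reached 7.77 ± 0.585, level with Psmb10 (7.64 ± 0.608) and H2-K1 (7.45 ± 0.926), and Tap2 reached 2.78 ± 0.885. The order of the middle genes depended on the length used: per median transcript length, Tap2 in the BCS group had rank 4 in place of rank 7.

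**Figure D3:**
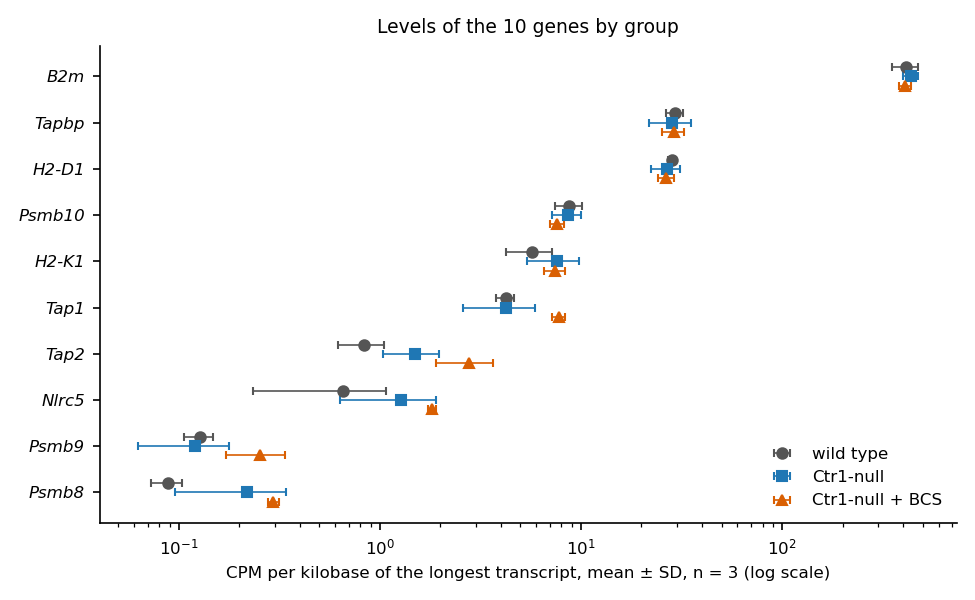
CPM per kilobase of the longest transcript for the 10 genes, mean ± SD of 3 libraries in each group, on a log axis. B2m has group means from 410 to 436, and Psmb8 and Psmb9 have means under 0.3.

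Tap1, Psmb8, Tap2 and Psmb9 lie side by side in 34.3 kb of the class II region of the MHC, so their neighbours were examined in a window of 200 kb to each side, chosen after the values were seen. It held 15 tested genes, of which 8 were called higher and 0 lower in the BCS group against wild type. Of all tested genes 8.56% were called higher and 7.28% lower. Because the window was placed around called members, its count does not measure the region. Members made up 5 of these genes, with 3 called, and 5 of the 10 others were called, with a median of 0.25 over the 10. Those called outside the class I genes were H2-DMb1 (1.85 ± 0.35, adjusted p = 0.0115), H2-DMa (1.14 ± 0.28, adjusted p = 0.0262) and H2-Eb1 (1.78 ± 0.38, adjusted p = 0.018) of the class II pathway. The others were the Polycomb gene Ring1 (0.45 ± 0.10, adjusted p = 0.0204) and the collagen gene Col11a2 (0.97 ± 0.20, adjusted p = 0.0149, all edgeR). Brd2 (-0.02), Rxrb (0.04), H2-Ke6 (0.05), Slc39a7 (-0.17), Gm20427 (-0.72), H2-K1 (0.39) and Psmb9 (0.99) were not called. Of these 7, all but Psmb9 had gene starts on the same side of Tap1, from -187.2 to -64.9 kb of its start. The called genes Ring1, Col11a2, H2-DMa and H2-DMb1 lay on that side too, from -162.9 to -34.5 kb, so side did not separate called from uncalled genes.

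**Figure D4:**
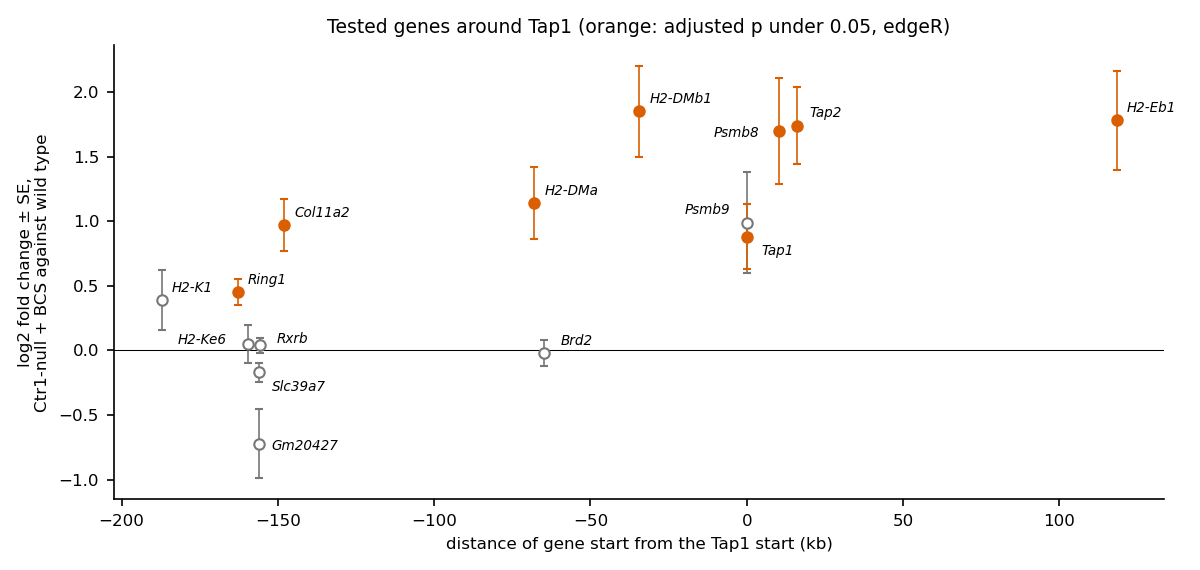
Log2 fold change ± SE of Ctr1-null + BCS against wild type for the 15 tested genes within 200 kb of the Psmb9 to Tap2 cluster, by distance of the gene start from that of Tap1 in kb. Filled points are the 8 genes called by edgeR.

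Other genes of the pathway were read from lists of named genes. Among further class I heavy chains, 11 of 18 were tested and 3 rose in the BCS group against wild type, none falling, with a median of 0.32. They were Hfe (1.21 ± 0.22, adjusted p = 0.0101), which acts in iron sensing, Mr1 (1.13 ± 0.26, adjusted p = 0.021), which presents vitamin metabolites, and the non-classical chain gene H2-Q10 (1.10 ± 0.32, adjusted p = 0.0452, all edgeR). H2-Q10 was scarce, at 15, 5 and 13 counts in wild type and 32, 24 and 24 with BCS. Leaving out 1 library at a time, edgeR called 1 to 4 of this list higher and 0 lower. The partners in loading and trimming went the other way: 6 of 8 fell and Tapbpl, a peptide editor related to tapasin, rose by 0.54 ± 0.12 (adjusted p = 0.0182), with a list median of -0.35. The chaperones Hspa5 (-0.67 ± 0.09, adjusted p = 0.00566), Calr (-0.58 ± 0.09, adjusted p = 0.00755), Canx (-0.32 ± 0.07, adjusted p = 0.0161) and Pdia3 (-0.32 ± 0.09, adjusted p = 0.0423) fell, as did the translocon subunit Sec61a1 and the trimming peptidase Erap1. These chaperones serve secretory proteins at large, not class I alone. With library size alone as the scaling 3 of the 8 were called lower, and with 1 library left out 3 to 6.

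Genes of the constitutive proteasome were read in the BCS group against wild type, where 8.56% of all tested genes were called higher and 7.28% lower. Of the 3 catalytic subunits 0 were called by edgeR and 0 had an unadjusted p under 0.05: Psmb5 gave -0.28 ± 0.14, Psmb6 -0.03 ± 0.07 and Psmb7 -0.12 ± 0.11. Of 14 other core and assembly genes, Psma1 (-0.33 ± 0.08, adjusted p = 0.0312) and Psma7 (-0.37 ± 0.10, adjusted p = 0.0331) fell and none rose. Estimates were above 0 for 0 of the 14, with a median of -0.19 beside 0.006 for all genes. The groups did not overlap for 4 of them, all lower, as for 17.1% of all genes. With 1 library left out 0 to 9 fell, the highest without wild type replicate 1, in a fit that called 5840 of 18835 genes. Of 4 activators, Psme4 fell by 0.34 on the log2 scale (adjusted p = 0.0448), while Psme1 (0.17 ± 0.09) and Psme2 (0.12 ± 0.10), which form the interferon-inducible PA28 cap, did not pass.

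Among called genes, the interferon axis showed no common direction. Of 20 receptors, JAK-STAT genes and IRFs, 17 were tested. In the BCS group against wild type edgeR called 0 of them, limma-voom 0 and DESeq2 1 lower. Unadjusted, edgeR gave p under 0.05 for 3 higher and 1 lower, against 17.0% and 15.9% of all genes. Estimates were above 0 for 13 of the 17, with a median of 0.12 beside 0.006 for all genes. Irf1, which activates class I promoters, gave -0.46 ± 0.17 (adjusted p = 0.0927, edgeR). Ifng had 0 counts in all 9 libraries. Of 16 interferon-gamma induced genes outside the class I pathway 12 were tested, and 2 rose and 2 fell: the GTPase gene Igtp (1.02 ± 0.19, adjusted p = 0.0111) and the adhesion molecule gene Icam1 (1.71 ± 0.48, adjusted p = 0.0405) rose, whereas the chemokine gene Cxcl10 (-2.99 ± 0.46, adjusted p = 0.00663) and Irgm1 (-1.07 ± 0.22, adjusted p = 0.0156) fell. With 1 library left out, 0 to 3 of this list were called higher and 1 to 3 lower, and without wild type replicate 1 Icam1 gave 2.58 (adjusted p = 0.001, edgeR). Cxcl10 was at 13.9, 50.4 and 49.5 CPM in wild type and at 2.89 to 6.26 in the 6 Ctr1-null libraries with or without BCS, wild type replicate 1 again standing nearest to them. Among 12 promoter factors besides Nlrc5, Nfkb1 (-0.57 ± 0.14, adjusted p = 0.0242), Nfyc (-0.41 ± 0.11, adjusted p = 0.0341) and the repressor Ezh2 (-0.38 ± 0.11, adjusted p = 0.0393) fell, and Rfx5, part of the complex that NLRC5 joins, gave -0.10 ± 0.08. With 1 library left out, edgeR called 0 to 4 promoter factors lower.

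**Figure D5:**
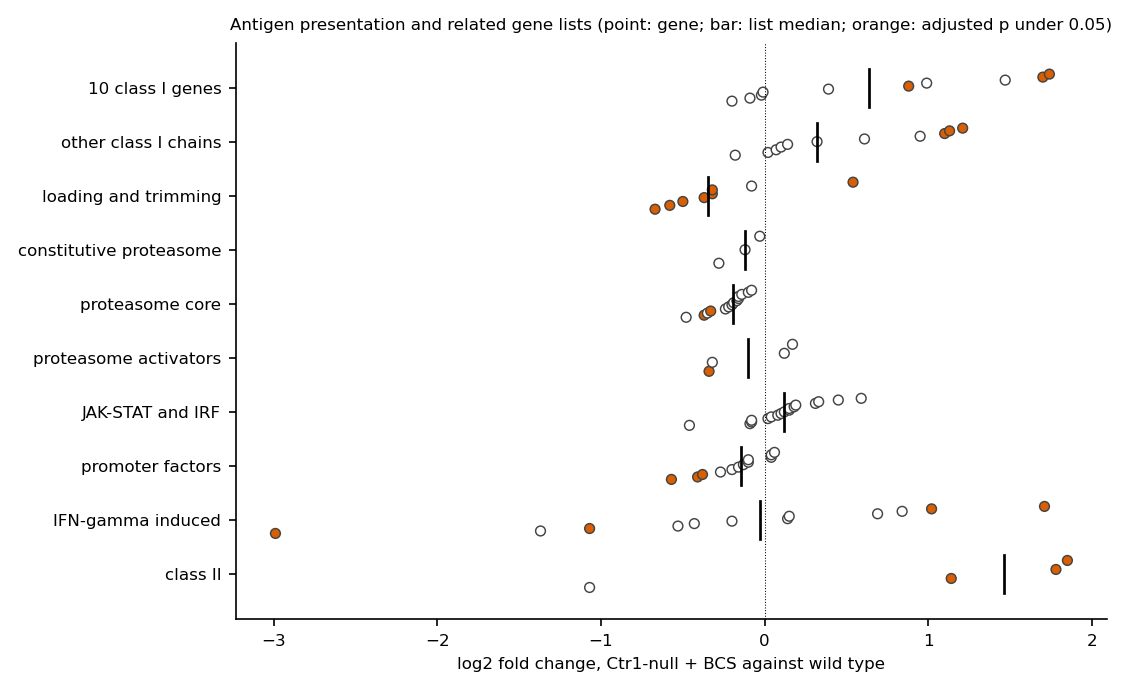
Log2 fold change of Ctr1-null + BCS against wild type for each tested gene of the class I genes and the pathway lists, with called genes filled. Loading partners lie mostly below 0, and the interferon lists spread to both sides.

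Of 6 class II genes listed, 4 were tested and 3 rose in the BCS group against wild type, H2-DMa, H2-DMb1 and H2-Eb1, or 0 to 3 with 1 library left out, while the invariant chain gene Cd74 gave -1.07 ± 0.62 (adjusted p = 0.258, edgeR). H2-Aa had 0 counts in all libraries, and H2-Eb1, at 0.216 to 0.478 CPM in wild type and 0.936 to 1.18 with BCS, was scarce. Over all 9 pathway lists edgeR and limma-voom called 0 of 85 tested genes in Ctr1-null against wild type, with 5 higher and 16 lower at an unadjusted p under 0.05 by edgeR (9.08% and 8.52% of all genes), and DESeq2 called 2 higher and 7 lower. Without wild type replicate 1, edgeR called 6 higher and 16 lower there. That fit called 1737 of 18835 genes higher (9.22%) and 1517 lower. In BCS against Ctr1-null edgeR and limma-voom again called 0 of 85, with 7 higher and 5 lower at an unadjusted p under 0.05 by edgeR (8.34% and 6.37% of all genes), and DESeq2 called 2 higher and 1 lower. In BCS against wild type edgeR called 9 higher and 14 lower (8.56% and 7.28% of all genes). Without wild type replicate 1 it called 12 higher and 27 lower. That fit called 5840 of 18835 genes, with 2964 of them (15.7% of all genes) higher and the rest lower. Cd74 (-1.56, adjusted p = 0.022), Psmb5 (-0.45, adjusted p = 0.00773) and Irf1 (-0.53, adjusted p = 0.0499) were among those it called lower.

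Markers of macrophages and other blood cells, which present antigen as their profession, were low, with higher but overlapping sums in the groups without Ctr1. The 10 markers summed to 5.97 to 13.0 CPM in wild type, 9.97 to 18.1 in Ctr1-null and 12.9 to 22.6 with BCS. Cd68, a lysosomal protein gene also used in other cells, gave most of this at 5.24 to 20.7 CPM, with wild type replicate 1 at 11.5, and a log2 fold change of 1.13 ± 0.35 in BCS against wild type (adjusted p = 0.056, edgeR). Csf1r, the receptor for a macrophage growth factor, was at 0.135 to 0.707 CPM in wild type, 0.734 to 1.09 in Ctr1-null and 0.606 to 1.04 with BCS (1.33 ± 0.53 against wild type, adjusted p = 0.112, edgeR). Laptm5, of blood cell lysosomes, was at 0.0541 to 0.0744 CPM in wild type and 0.208 to 0.309 with BCS, and these 2 groups did not overlap (1.89 ± 0.60, adjusted p = 0.061, edgeR). It had 3, 2 and 4 counts in wild type, about the floor of 3 counts, 1, 9 and 2 in Ctr1-null and 17, 11 and 11 with BCS. Of 5 of these markers tested edgeR called 0 in BCS against wild type, with 3 higher at an unadjusted p under 0.05, and 2 higher without wild type replicate 1 (Cd68 and Csf1r), while limma-voom and DESeq2 called 1 each. Adgre1 and Tyrobp had 0 counts in all 9 libraries, and Ptprc stood between 0.145 and 0.310 CPM with groups that overlapped. Endothelial markers summed to 27.5 to 38.0 CPM in wild type, 25.9 to 33.8 in Ctr1-null and 23.7 to 31.9 with BCS. Epithelial markers summed to 2.31 to 9.78, 1.16 to 3.95 and 2.16 to 2.55 CPM in the same order. In BCS against wild type Krt18 gave -1.67 ± 0.58 (adjusted p = 0.0793, edgeR). Without wild type replicate 1, edgeR called Krt18 (-2.10, adjusted p = 0.0069) and Krt8 (-3.03, adjusted p = 0.00935) lower there, and not Cdh1 (-0.54, adjusted p = 0.422). Krt8 failed the filter on low counts when all libraries were kept, with 7, 24 and 44 counts in wild type and 5, 2 and 7 with BCS. It entered the smaller fit through wild type replicates 2 and 3, where it was highest, so the filter itself favoured a lower call. Of the 9 fibroblast markers edgeR called 0 in BCS against wild type. Without wild type replicate 1 it called Pdgfra (2.73, adjusted p = 0.00193) and Fn1 (0.35, adjusted p = 0.0445) higher and Vim (-0.3, adjusted p = 0.0276) lower. That fit called 15.7% of all genes higher. The part of blood, endothelial and epithelial cells, or of differences among the fibroblasts, in the class I values was not tested.

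The members did not follow 1 pattern across the 9 libraries, which share genotype and treatment within groups and differ in depth within them. Against the mean of the members' standardised log2 CPM, which contains each of them, Pearson's r ran from 0.818 to 0.897 for H2-K1, Psmb8, Nlrc5, Tap1, Tap2 and Psmb9, from 0.495 to 0.524 for H2-D1, Tapbp and B2m, and was -0.850 for Psmb10. Outside the members, the named genes closest to that mean were Mab21l2 (0.996), Tnni3 (0.984), Snx32 (0.984), Tmem175 (0.981) and Unk (0.980), followed by Alpk1, Creb3l4, Paqr6, Zfyve21 and Zfp423 at 0.968 to 0.978. These are descriptions over 9 libraries in 3 groups. edgeR called none of the 10 in the BCS group against wild type, with adjusted p from 0.0613 to 0.279.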

How the data were processed

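The authors deposited estimated counts for each gene as whole numbers, without normalisation. They also deposited a table of scaled signal values, from which their scaling factors were taken for 1 alternative. GRCm38, Salmon, STAR, DESeq2 and FastQC are named in the submitters' processing notes. Versions, the role of each tool and strand use are not given in the sources used here. Symbols, lengths and coordinates came from GENCODE M21 (GRCm38) by Ensembl identifier, with 95 of 52661 rows unmatched.

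The counts of all 9 libraries in 3 groups were scaled by TMM, filtered with filterByExpr (minimum count 10, minimum total 15) and tested in 1 quasi-likelihood fit of edgeR 4.0.16 (R 4.3.3), 2-sided, with Benjamini-Hochberg adjustment over 18408 genes and calls at an adjusted p under 0.05. The SE of a log2 fold change was obtained as its size over the root of the F statistic. Depth was 38962036 to 57206337 counts per library, and floors of 3 counts describe counting error alone, because the reads carry no molecular identifiers and may repeat a molecule. On simulated data for BCS against wild type, with 18051 genes, the fit called 80 of 100 genes changed 2-fold, 94 of 100 changed 4-fold and 12 of 17851 unchanged. The changed genes were drawn from those with a mean above 1 CPM, so these rates do not cover Psmb8 and Psmb9.

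Alternatives were other scalings, other filters, DESeq2 1.42.0, limma-voom (limma 3.58.1), a fit of the groups compared alone, a replicate block and leaving out each library. The 10 genes, the gene lists and the naming rule (all members, the genes called or nearest to it in each list, Irf1 and others in every comparison, and the 10 genes most like the members) were chosen with earlier results of these data known. Neighbours of Tap1, the further called genes of the loading and promoter lists, H2-Q10, Rfx5, Cd68, Csf1r, Laptm5, Adgre1, Tyrobp, Krt8, Krt18, Cdh1, Fn1, Vim, Thy1, Pdgfra, Ifng and H2-Aa were named outside that rule, after their values were seen. Plots used matplotlib 3.10.9 (Python 3.11.15), and all libraries were kept. The value of 1 gene that the rule names is not reported here.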

Additional observations from a re-analysis of the deposited data

How the results depend on the processing

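Tap2 in BCS against wild type was called in every fit run. There, edgeR called 3 members with library size alone, upper-quartile factors or the size factors of DESeq2, 2 with the authors' factors (Tap1 lost, adjusted p = 0.0575) or a filter of 1 CPM in 3 libraries (Psmb8 and Psmb9 not tested), and 4 with no filter or only the groups compared, as did DESeq2 and limma-voom. These counts of members are not set against the share of all genes that each fit called, so they show only which calls held. With 1 library left out, members called ran from 1 to 4 in BCS against wild type, in fits that called 568 to 5840 genes. They ran from 0 to 2 in Ctr1-null against wild type and were 0 in BCS against Ctr1-null. Without any 1 of the BCS libraries or of wild type replicates 2 and 3, Tap2 was the 1 member called in BCS against wild type. DESeq2 called 1 member (Tap1) in BCS against Ctr1-null.

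Genes called overall in Ctr1-null against wild type were 2, then 4 under the 4 other scalings and the stricter filter, 265 with no filter, 991 by DESeq2, 6 by limma-voom, 1 with only the groups compared, and 1 to 3254 with 1 library left out, the highest without wild type replicate 1. In BCS against Ctr1-null they were 10, then 114 with no filter, 621 by DESeq2 and 0 to 183 with 1 library left out. In BCS against wild type they were 2916, and 568 to 5840 with 1 library left out, the highest again without wild type replicate 1. Library size alone moved the median of all genes to 0.105 there and the split to 2064 higher and 784 lower, from 1576 and 1340.

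Replicate numbers did not pair the libraries: same-numbered libraries had deviation correlations from -0.319 to 0.275. With a replicate block, edgeR called 1 gene in Ctr1-null against wild type, 2 in BCS against Ctr1-null and 1543 in BCS against wild type, with 2 members in the last (Tap1 at adjusted p = 0.0773), and Tap1 in the first gave -0.03.

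Estimates near 0 changed sign, and the cause was not tested. In Ctr1-null against wild type these were Tap1 under limma-voom (-0.07), Tapbp and Psmb10 under upper-quartile factors (0.00 and 0.01) and library size alone (0.02 each), and Psmb9 under the authors' factors (0.04). With 1 library left out, H2-D1 reached 0.00, Tap1 -0.25 to 0.30, Tapbp -0.18 to 0.14, Psmb9 -0.38 to 0.24 and Psmb10 -0.17 to 0.08. In BCS against Ctr1-null they were H2-D1 (0.03) and H2-K1 (0.01) under library size alone and H2-K1 (0.00) under limma-voom. With 1 library left out, H2-D1 ran from -0.10 to 0.12, H2-K1 from -0.22 to 0.20 and Tapbp from -0.16 to 0.16. In BCS against wild type they were H2-D1 (0.01), B2m (0.09) and Tapbp (0.08) under library size alone, B2m (0.03) and Tapbp (0.02) under upper-quartile factors, B2m (0.01) and Tapbp (0.00) under the stricter filter and B2m (0.00) under limma-voom. With 1 library left out, B2m ran from -0.08 to 0.11 and Tapbp from -0.12 to 0.06. Psmb8 and Psmb9 rest on 5 to 47 counts per library.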
